A study of Mus musculus with 2 samples.

Results

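The genes described here encode PBX, MEIS, PKNOX and TGIF proteins, a group of related homeodomain transcription factors, and the question asked of each was whether GATA4 occupies DNA in or near it in adult mouse liver. The 9 genes Pbx2, Pbx3, Meis1, Meis2, Meis3, Pknox1, Pknox2, Tgif1 and Tgif2 were chosen by family with the GATA4 peaks of these data already known. A GATA4 occupied site (OS) was counted for a gene when its midpoint lay in the gene body or within 50 kb of it, and 9 of the 4409 OS in the common peak list met this rule. They fell at 4 of the 9 genes: 4 at Meis2, 3 at Meis1, and 1 each at Pknox2 and Pbx2. ChIP-seq with the GATA4 antibody C-20 was carried out on whole liver of C57BL/6 x Sv129 mice aged 2 to 3 months by the labels, with DNA that had not been precipitated as the input library. The paper gives a slightly higher age range for these mice. Whole liver mixes hepatocytes with endothelial, stellate, Kupffer and bile duct cells, so an OS cannot be given to a cell type from these peaks alone. In the paper, excision of Gata4 in hepatocytes removed nearly all GATA4 from the loci examined by ChIP-qPCR, which the authors read as occupancy in hepatocytes only. None of the loci named there is at the 9 genes. Biological replicates, each from pooled livers, stand behind a single peak set in each deposited list, and no value per replicate was analysed here. Read counts were not analysed, and the depth behind a single OS is unknown.

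These factors share a homeodomain with an extended loop, from which the name TALE homeobox is taken. PBX proteins bind DNA together with HOX proteins and with MEIS or PKNOX proteins, and the latter help to keep PBX in the nucleus. MEIS, PKNOX and TGIF homeodomains read a TGACAG-like core, and TGIF proteins act mainly as repressors that recruit histone deacetylases and restrain TGF-beta signalling through SMAD proteins. In the embryonic liver, Meis1 and Pknox1 are known for their part in blood formation.

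Each OS at Meis1 lay within a gene intron, and its whole sequence is shown because the letters under the peak can be set against WGATAR, the sequence that GATA factors prefer (W is A or T, R is A or G). The sequences are those of the plus strand of mm9 and are read from 5′ to 3′. Capitals mark WGATAR on either strand, which reads YTATCW when it lies on the minus strand (Y is C or T). In Meis1 site 1, which holds no WGATAR, capitals mark each GATA instead.
Meis1 site 1, chr11:18878170-18878323: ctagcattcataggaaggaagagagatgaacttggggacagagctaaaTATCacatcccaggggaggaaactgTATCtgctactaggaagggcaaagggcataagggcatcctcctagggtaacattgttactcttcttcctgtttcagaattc
Meis1 site 2, chr11:18870066-18870145: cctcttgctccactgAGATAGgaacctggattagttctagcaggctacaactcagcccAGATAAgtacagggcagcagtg
Meis1 site 3, chr11:18857232-18857327: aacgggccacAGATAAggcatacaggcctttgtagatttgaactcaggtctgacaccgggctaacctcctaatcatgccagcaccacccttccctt

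The 4 OS at Meis2 are shown in the same way, numbered along the gene from its start. Meis2 site 3 has no capitals because GATA was not found in it on either strand.
Meis2 site 1, chr2:115875621-115875775: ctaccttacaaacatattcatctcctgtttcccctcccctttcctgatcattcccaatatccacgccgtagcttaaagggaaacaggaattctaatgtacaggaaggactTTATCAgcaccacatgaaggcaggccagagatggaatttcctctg
Meis2 site 2, chr2:115759123-115759241: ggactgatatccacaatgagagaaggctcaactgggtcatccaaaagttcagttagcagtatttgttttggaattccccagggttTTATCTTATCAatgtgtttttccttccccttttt
Meis2 site 3, chr2:115739041-115739163: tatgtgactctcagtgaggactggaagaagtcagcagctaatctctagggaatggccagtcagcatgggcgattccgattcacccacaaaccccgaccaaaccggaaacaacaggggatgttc
Meis2 site 4, chr2:115736070-115736239: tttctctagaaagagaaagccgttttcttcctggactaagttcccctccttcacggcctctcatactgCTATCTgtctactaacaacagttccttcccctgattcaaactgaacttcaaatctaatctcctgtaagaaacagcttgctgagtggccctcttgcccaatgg

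The remaining OS were at Pknox2 and at Pbx2. Of the 320 bp of the Pbx2 site, only the 86 bases around its WGATAR are given.
Pknox2 site 1, chr9:36888017-36888113: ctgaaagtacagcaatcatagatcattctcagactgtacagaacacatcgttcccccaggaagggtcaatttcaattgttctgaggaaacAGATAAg
Pbx2 site 1, chr17:34742812-34742897: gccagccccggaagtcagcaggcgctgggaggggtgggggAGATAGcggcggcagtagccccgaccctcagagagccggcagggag

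At Meis1, the factor best known as a partner of HOX proteins in blood stem cells, all 3 OS lay in intron 7 of the longest coding transcript. This intron is 46.5 kb long, and the 3 OS spanned 21.0 kb of it. Site 1 was 154 bp wide with its midpoint 40.7 kb from the start of the gene, site 2 was 80 bp wide at 48.9 kb, and site 3 was 96 bp wide at 61.7 kb. Neighbouring midpoints were thus 8.14 and 12.8 kb apart. Meis1 spans 138.5 kb of chromosome 11 (18780433 to 18918961, minus strand), and beyond its window the next common OS was 901.4 kb away, nearest to Spred2. In this annotation the nearest coding TSS to each of the 3 OS belonged to Gm16140, a gene model of unknown role that starts inside Meis1 on the other strand. Its TSS was 30.9, 39.0 and 51.9 kb from sites 1, 2 and 3, compared with 33.8, 41.9 and 54.7 kb for the nearest coding TSS of Meis1 itself, that of transcript Meis1-006.

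Site 2 of Meis1 carried AGATAG at 18870081 to 18870086 and AGATAA at 18870124 to 18870129, which was a pair in the same orientation with centres at 22 and 21 bp on either side of the midpoint. Site 3 carried a single AGATAA, centred 35 bp from its midpoint. Site 1 held GATA at 2 places, TGATA and AGATA, neither of them followed by A or G. The nearest full WGATAR to the midpoint of site 1 was TGATAG, 205 bp away and outside the OS, but within the MACS2 peak that overlapped it.

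Meis2, whose protein is closely related to MEIS1, had the most OS of the 9 genes, and all 4 lay in introns of its longest coding transcript. The gene spans 202.8 kb of chromosome 2 (115688800 to 115891575, minus strand). Site 1 lay in intron 6, with its midpoint 15.9 kb from the start of the gene, and 282 bp upstream of the start of Meis2-004, a transcript annotated as non-coding. With all transcripts of the gene counted, site 1 was promoter proximal in the paper's sense (5 kb upstream of a TSS to the end of the first exon). Because coding transcript Meis2-010 begins 7.92 kb downstream of site 1, this was also the OS nearest to a coding TSS of Meis2. The other OS lay far within the gene. Site 2 was in intron 8, 132.4 kb from the start, while sites 3 and 4 were in intron 9 at 152.5 and 155.4 kb. Sites 3 and 4 were only 2.95 kb apart, the closest pair at any of the 9 genes. All 3 were upstream of Meis2-002, a short coding transcript of 8.09 kb at the end of the gene, by 60.5, 40.4 and 37.5 kb. No other protein-coding gene overlapped the Meis2 window, and the nearest coding TSS of all 4 OS was that of Meis2.

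Site 2 of Meis2 held a pair of overlapping GATA motifs. Read on the minus strand, TGATAA (115759213 to 115759218) ran directly into AGATAA (115759208 to 115759213), so that these WGATAR sequences shared a base and were spaced by 5 bp. Such a pair on the same strand was present in 41 of the 4409 common OS (0.930%, Wilson 95% interval 0.686 to 1.26), of which Meis2 site 2 was the only one at the 9 genes. The pattern was chosen after it was seen in this OS, so its low share does not mark the OS out. Site 2 also held WGATA near its other end. Site 1 of Meis2 carried TGATAA, 35.5 bp from its midpoint, and site 4 carried AGATAG, 14 bp from its midpoint. In site 3, with no GATA at all, the nearest WGATAR was AGATAA at 173.5 bp, again outside the OS and inside its MACS2 peak. All 4 WGATAR of Meis2 OS were on the minus strand, the strand from which Meis2 is read, whereas the 3 of Meis1 OS were on the plus strand, opposite to that of Meis1. The number of motifs is too small for a comparison of strands. Of all common OS with exactly 2 WGATAR, 50.7% (557 of 1099) had both on the same strand.

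Meis1 and Meis2 have the same exon plan, which allows their introns to be set side by side. Their longest coding transcripts have 13 exons each, and 8 of the 13 have exactly the same length in both. In that order, introns 6, 7, 8 and 9 are 22.9, 46.5, 35.9 and 20.04 kb long in Meis1 and 9.43, 48.8, 78.4 and 52.9 kb in Meis2. The common OS fell in intron 7 of Meis1 and in introns 6, 8 and 9 of Meis2. With so few OS in a few long introns, nothing is read from this difference in place. MACS2 alone called a further peak in intron 8 of Meis1, the intron whose counterpart in Meis2 held site 2. Meis3, also with 13 exons, of which 5 equal those of Meis1 in length, covers only 11.1 kb in all, and its longest intron is 2.94 kb. No peak of any list lay in its body or within 50 kb.

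**Figure D1:**
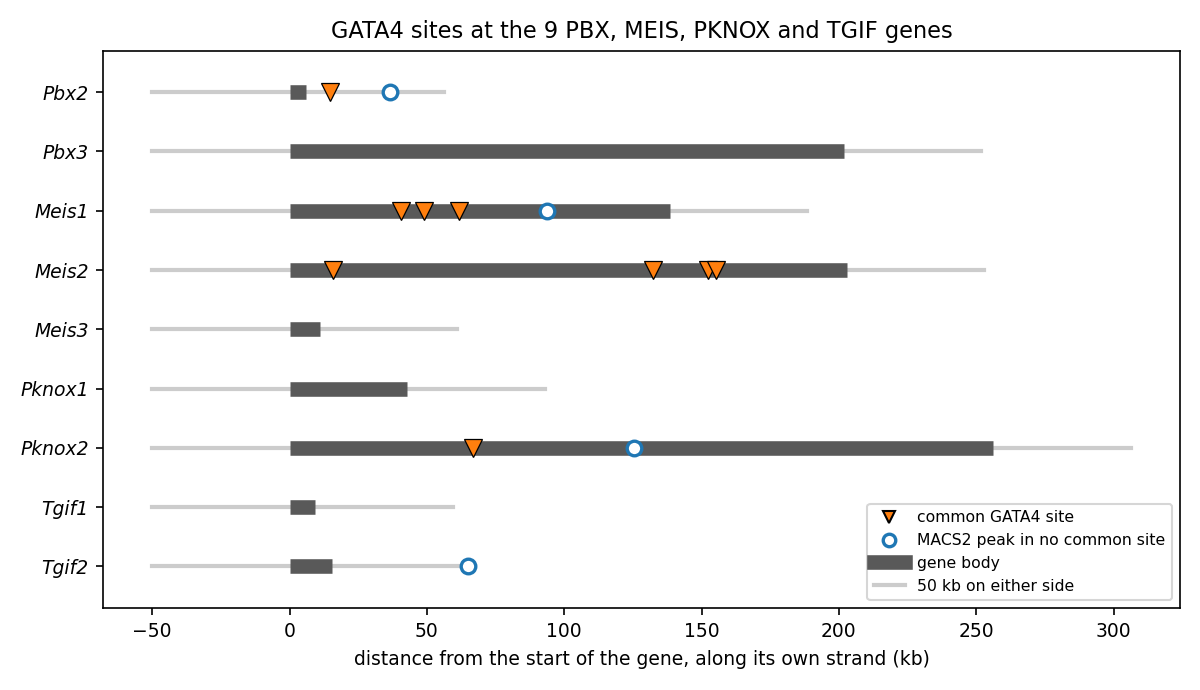
Each of the 9 genes drawn from its start along its own strand (x axis, kb), with the gene body as a thick bar, 50 kb on either side as a thin line, common OS as triangles, and MACS2 peaks that met no common OS as circles. The OS of Meis1 lie together between 40.7 and 61.7 kb, those of Meis2 lie singly at 15.9 kb and together from 132.4 kb on, and Pbx3, Meis3, Pknox1 and Tgif1 carry no peak of either kind.

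Pknox2, a PBX partner of the PKNOX (PREP) type, is the longest of the 9 genes, with 256.3 kb on chromosome 9 (36698570 to 36954899, minus strand), and held 1 OS. It was 97 bp wide and lay in intron 2, itself 114.7 kb long, at 66.8 kb from the start of the gene. Its AGATAA was centred 44.5 bp from the midpoint and ended 1 bp before the edge of the OS. A further peak in the same intron, at 125.3 kb from the start, was called by MACS2 alone. It was number 5108 of 5867, 621 bp wide, and held 3 WGATAR. Pknox1, the other gene of this type, spans 42.9 kb of chromosome 17 and had no peak in any list within 50 kb. The nearest common OS was 301.5 kb away, near Sik1.

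The OS counted for Pbx2 was closer to another gene. Pbx2 is a short gene of 6.14 kb in a dense stretch of chromosome 17 (34728211 to 34734345, plus strand), and 11 other protein-coding genes overlapped its window. The OS (34742690 to 34743009) lay 8.51 kb beyond the end of Pbx2, but its midpoint was 43.5 bp from an annotated TSS of Agpat1, which encodes an acyltransferase of phospholipid and triglyceride synthesis. It differed from the 8 intronic OS in more than place. Its width was 320 bp, against 80 to 170 bp for the others, and its GC content was 69.4%, against 39.5 to 52.1%. A width of 320 bp was the most frequent one in the common list (1127 of 4409 OS, 25.6%). A MACS2 peak with no common OS in the same window lay 153 bp from a TSS of Ppt2, a gene for a lysosomal thioesterase. Pbx3, the other PBX gene of the group, is almost as long as Meis2 (201.7 kb, chromosome 2) and yet had no peak in any of the 3 lists in its window. The common OS next to it was 328.1 kb beyond the gene body.

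Neither TGIF gene had a common OS. Tgif1 (9.34 kb, chromosome 17) had no peak of any list within 50 kb, and the nearest common OS was 698.4 kb away. Near Tgif2 (15.5 kb, chromosome 2), MACS2 alone called a peak of 282 bp, just inside the window on its downstream side. This peak held no WGATAR, and the nearest coding TSS, that of Sla2, was 18.0 kb away. Around the limit of 50 kb the rule had little bearing on OS inside it, since the OS farthest from a gene body was that of Pbx2, at 8.51 kb. Just outside were OS at 54.0 kb from Meis3 and 56.5 kb from Tgif2, nearest to Gpr77 and Myl9, and at 82.6 kb from Pknox2 and 85.9 kb from Meis2. The last of these still had Meis2 as the gene of its nearest coding TSS.

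Since the genes were chosen with the peaks known, their number of OS is a description and was not tested. By the same rule, 27.7% of the 22380 protein-coding genes of the annotation had at least 1 OS, and 7.67% had one in the gene body, beside 4 and 3 of the 9 genes. Gene length bears on these numbers, because a long gene covers more sequence. Among 1873 protein-coding genes with a body of 100 to 300 kb, as in Pbx3, Meis1, Meis2 and Pknox2, 36.5% had at least 1 OS by the rule, 6.67% had 3 or more, and 3.26% had 4 or more. No OS was found for 1190 of them (63.5%), as for Pbx3. The windows of the 9 genes cover 1.78 Mb and held 0.504 OS per 100 kb, compared with 0.233 per 100 kb in the windows of all protein-coding genes. By gene, the density was 1.32 OS per 100 kb at Meis2, 1.26 at Meis1, 0.942 at Pbx2 and 0.281 at Pknox2. For all 9 genes, the density over all protein-coding genes would give 4.15 OS. The windows of Pbx3, Meis3, Pknox1, Tgif1 and Tgif2 together cover 0.781 Mb, in which that density would give 1.82 OS. These genes were grouped because they had no OS, so this value is no sign of a lack of OS there.

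**Figure D2:**
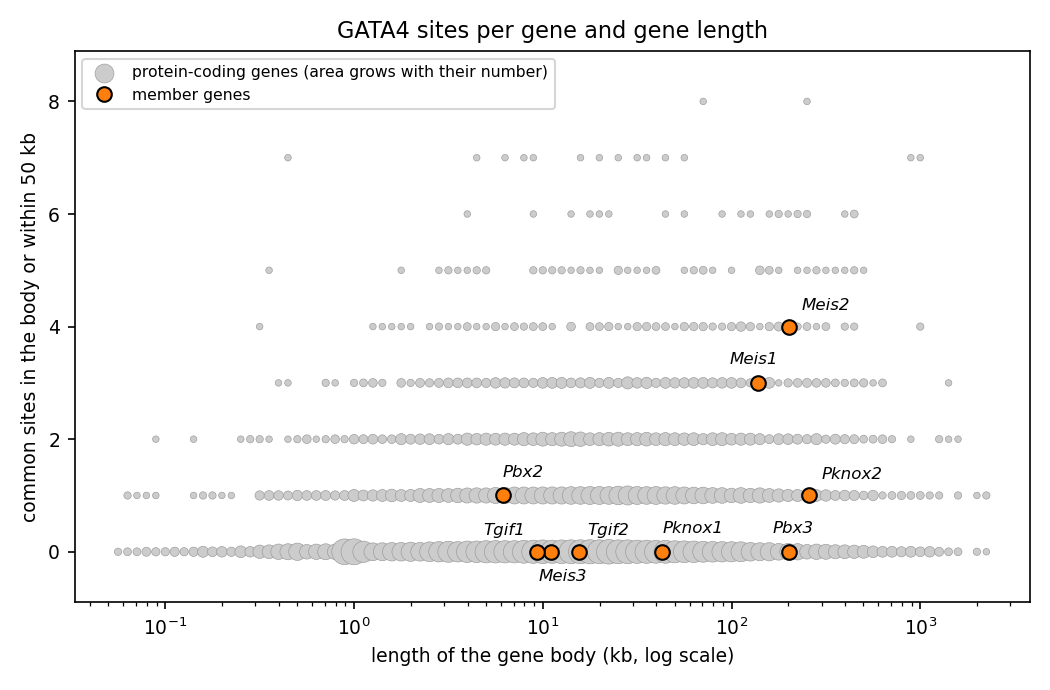
Number of common OS in the gene body or within 50 kb (y axis) against the length of the gene body (x axis, kb, log scale) for protein-coding genes (grey, area growing with the number of genes at that place) and the 9 genes (orange); 6 genes with more than 8 OS are not drawn. Meis2 with 4 OS and Pbx3 with 0 have nearly the same length.

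Of the 1106 other protein-coding genes whose body is within 1.5 times the length of that of Meis2, 42 had at least as many OS. The 5 closest to it in length were Clec16a, Fbn1, Zmiz1, E130114P18Rik and Mthfd1l. Clec16a (199.5 kb), which takes part in autophagy, had 4 OS, all in its body as at Meis2. Zmiz1, which encodes a coactivator of nuclear receptors and other factors, had 6, of which 3 were in the body. Fbn1, the gene for fibrillin-1 of elastic microfibrils, and Mthfd1l, a mitochondrial enzyme of folate metabolism, each had 4 with 3 in the body.

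Further genes of the same superclass were read by the same rule. Pbx4, another PBX gene, had 1 OS in its window, but the nearest coding TSS was that of Ndufa13. The 6 Irx genes and Mkx, which also encode TALE homeodomain proteins, had none. Among 39 HOX genes, whose proteins bind DNA with PBX, 7 had an OS in reach (Hoxb1 to Hoxb7, neighbours in the Hoxb cluster), and these came from only 2 OS, nearest to Hoxb1 and Hoxb3. Among 9 genes for proteins that act with the members, 4 had an OS. It lay in the gene body at Smad3, a transducer of TGF-beta signals, and at Ctbp2, a corepressor, with 1 OS each. The 2 OS near Hdac1 and the 2 near Hdac3, both histone deacetylases, were closer to other genes. For comparison with other families of transcription factors, 8 of 17 Kruppel-like factor genes had at least 1 OS, with 14 OS in all (Klf3 and Klf15 with 3 each), and 7 of 42 forkhead genes had at least 1, with 12 OS in all (Foxn3 with 6). Their median body lengths were 11.4 and 5.54 kb, against 42.9 kb for the 9 genes. By the same rule, 27.7% of all protein-coding genes had an OS. The share was 47.1% for Kruppel-like factor genes and 44.4% for the partner genes, and lower for HOX (17.95%) and forkhead genes (16.7%). These shares were not compared by a test, since genes were grouped with the peaks in view.

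The deposited score is 1000 for every peak and carries no strength, which leaves the number given to a peak in its list. What the numbering follows is not stated in the files, and a number is not read here as a strength. In the common list the 9 OS ran from number 799, Meis2 site 2, to number 3139, Meis2 site 3, with a median of 2287 of 4409. OS of the same gene could thus be far apart in the list, as these Meis2 OS were. In the MACS2 list, where all 9 were overlapped over their full width, the numbers ran from 1388 (Meis2 site 4) to 4205 (Meis1 site 2) of 5867. The lists put several of these OS in a different order. Meis1 site 3 was number 2489 in the common list, the last of the 3 at that gene, but its MACS2 peak was number 1870, ahead of 3483 for site 1 and 4205 for site 2. Meis2 site 2 showed the widest gap. It stood at 18.1% of the common list and at 61.1% of the MACS2 list, 43.0 percentage points apart. A gap at least as wide was present in 249 of the 4409 common OS (5.65%). That share makes no allowance for picking the widest gap of 9, so it does not mark this OS out. The median gap over all common OS was 13.0 points. For Meis2 site 4 the gap was only 1.93 points.

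**Figure D3:**
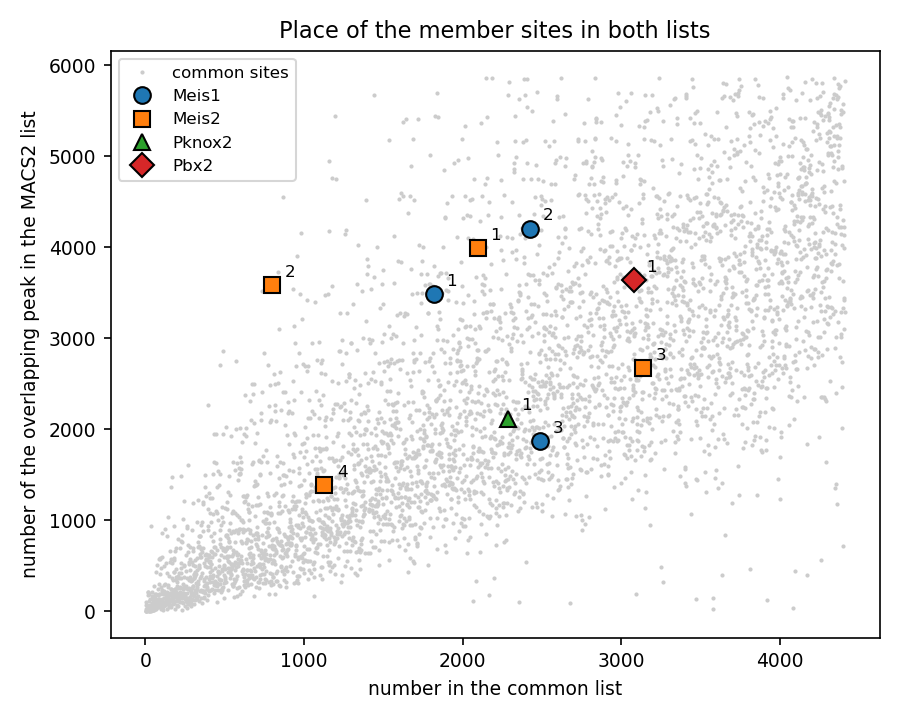
Number of each OS in the common list (x axis) against the number of the MACS2 peak that overlaps it (y axis), for all common OS (grey) and the 9 OS at Meis1, Meis2, Pknox2 and Pbx2, marked with their site number. Meis2 site 2 lies far above most OS of a similar number in the common list, and Meis2 site 4 is early in both lists.

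Most of the 9 OS were narrow, but the Pbx2 site was 320 bp wide. The median width of the 9 was 123 bp, against 190 bp over all common OS. At most 170 bp wide were 8 of the 9, and 1861 of the 4409 (42.2%). The limit of 170 bp is the width of Meis2 site 4 and was chosen after the OS were seen. The count of 8 was thus fixed by the limit, and nothing is concluded from these shares. Width was set by the same peak calls as the rule and was not tested. Of the 9 OS, 7 held at least 1 WGATAR (77.8%, Wilson 95% interval 45.3 to 93.7). In the other 4400 common OS the share was 82.9% (81.8 to 84.0), and no difference could be shown (two-sided Fisher's exact test, p = 0.657, adjusted over 4 sequence tests 0.683). WGATA or GATAR occurred in 8 of the 9, against 92.9% of the rest (two-sided Fisher's exact test, p = 0.487, adjusted p = 0.683). Over the whole list, WGATAR was found in 77.9% of common OS up to 170 bp wide and in 86.5% of the wider ones. The paper reported a higher share of occupied sites with WGATAR than was found here. Over 500 bp around the midpoint, the share here was 89.6% in the other common OS and 100% in the 9. Whether the width scanned accounts for the difference from the paper was not tested. As a background, equally wide windows were read 5000 bp along the plus strand from each OS. WGATAR was in 1 of the 9 windows beside the member genes' OS, and in 31.9% of the windows of all common OS. The motifs found were AGATAA at 4 places, AGATAG at 3 and TGATAA at 2, and TGATAG at none. A WGATAR centred within 50 bp of the midpoint occurred in 7 of the 9 (77.8%), against 3307 of all 4409 common OS (75.0%), although the narrowest OS leave no room for one farther out.

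**Figure D4:**
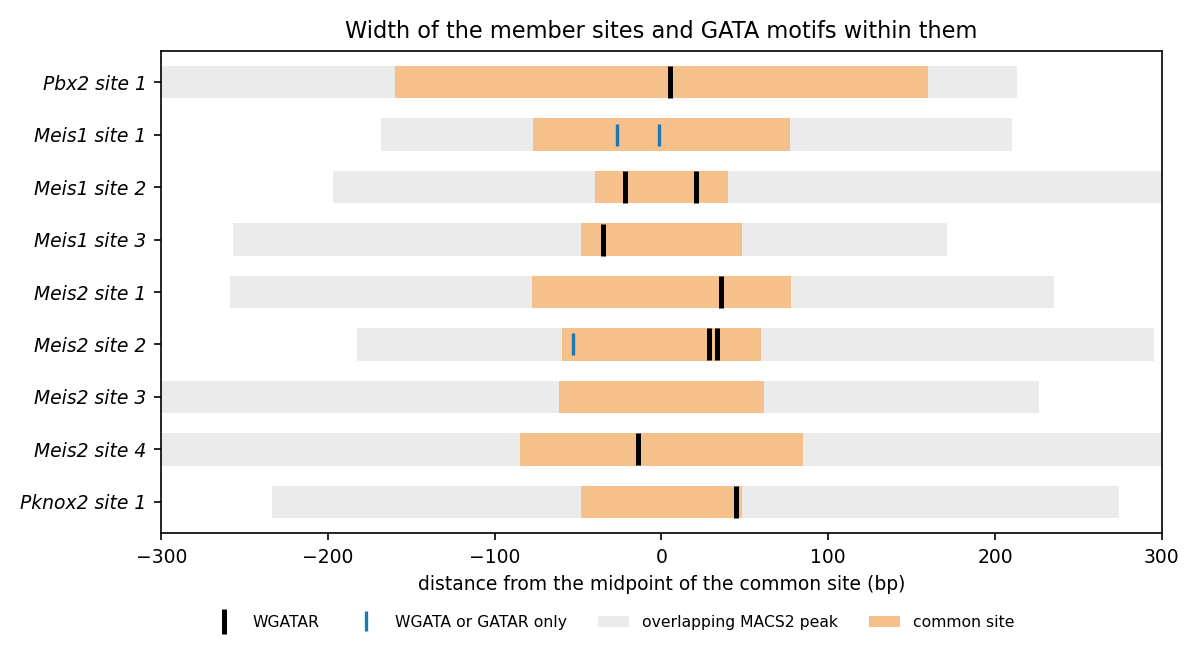
The 9 OS to scale around their midpoint (x axis, bp; orange bars), the overlapping MACS2 peaks (grey bars, cut off at 300 bp), WGATAR (black ticks) and WGATA or GATAR that is not part of WGATAR (blue ticks). Meis1 site 1 has no black tick, Meis2 site 3 has no tick at all, and the paired ticks of Meis2 site 2 mark the WGATAR that share a base.

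Because MEIS, PKNOX and TGIF proteins read TGACAG themselves, the OS were also searched for these letters on both strands. None of the 9 held TGACAG (0 of 9, which by the Wilson 95% interval allows a share of up to 29.9%), compared with 729 of the 4400 others (16.6%, 15.5 to 17.7). The two-sided Fisher's exact test gave p = 0.371 (adjusted p = 0.683). Since 0 of 9 is the lowest share possible, this test could not have shown a lack of TGACAG with 9 OS. TGACAG was found in 186 of the 1861 common OS up to 170 bp wide. In the background windows it was present in 1 of 9 for these OS and in 14.5% for all common OS. The letters TGATTNAT, read by PBX with HOX proteins, were in 0 of the 9 and in 2.84% of all common OS. No match says only that these letters were not in these stretches of sequence. Mean GC content was 49.0% ± 8.88 (SD, n = 9 sites) at the 9 OS and 50.1% ± 7.32 (SD, n = 4400 sites) at the others (two-sided permutation test with 100000 resamples, p = 0.683, adjusted p = 0.683). Several of the 9 OS share a gene, but the tests took them as independent. With 9 OS these tests can show at most large differences, and in some directions none. Over 500 bp around the midpoint all 9 held WGATAR, and the two-sided Fisher's exact test still gave p = 0.611.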

How the data were processed

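One GATA4 ChIP library and 1 input library are listed in the labels, and the input bears on the peaks only as the background of their calling. The authors aligned reads to mm9 (Bowtie 0.12.7), removed those that matched more than 1 place, ran a modified SPP and MACS2 2.0.10 against input, set thresholds by IDR (reproducible rank between replicates), and intersected both lists with bedtools 2.16.1. The deposited score is 1000 for every peak. Each deposited list stands for both replicates together, so no replicate error can be given. Depth is not in the files.

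Genes came from GENCODE M1 on NCBI Build 37, which is mm9. Positions are 1-based. The members and gene lists were chosen with earlier results of these data known, and all 9 members are named, with genes nearest to their sites, genes alike in length and site number, and listed genes with a site. TGATTNAT, the width of 170 bp and the pairs of motifs were chosen after the sites were seen. Motifs were matched exactly on both strands. Peaks overlapped by at least 1 bp. The 4 sequence tests (Fisher's exact test, or a permutation test with seed 1 and 100000 resamples) were adjusted by Benjamini-Hochberg, threshold 0.05. Intervals are Wilson intervals and cover counting error only. Alternatives were other peak lists, reaches, gene models and scanned widths. Python 3.11.15 with scipy 1.17.1, numpy 2.4.6, matplotlib 3.10.9, pandas 2.3.3 and pysam 0.24.0, and samtools 1.23.1 were used, and functions were first tested on simulated data. One gene of the lists is not reported here.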

Additional observations from a re-analysis of the deposited data

How the results depend on the processing

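The 9 OS became 4 at 2 genes among the first 2204 peaks of the common list, and 5 at 2 genes when only OS nearest to a coding TSS of the member were counted, since Gm16140 and Agpat1 were then the genes of the others. The density was 0.905 OS per 100 kb in gene bodies alone, against 0.230 in the bodies of all protein-coding genes. A reach of 5 to 100 kb gave 8 to 13 OS at 3 to 6 genes, and the MACS2 list gave 13 peaks at 5. A wider reach or a longer list takes in more genes of any kind. No share of all protein-coding genes is given for these settings, so the gene counts are not read as a gain or loss. The WGATAR share was above that of other peaks with the MACS2 list (92.3%, against 90.3%). It was also above theirs in the central 100 bp (77.8%, against 74.3%) and in 500 bp around the midpoint (100%, against 89.6%). The share with WGATA or GATAR was above theirs without Meis2 (100%, against 92.9%) and among the first 2204 peaks (100%, against 95.5%). The same held in the central 100 bp (88.9%, against 85.8%) and in 500 bp (100%, against 97.6%). Mean GC content was higher than elsewhere (51.9%, against 50.05%) only without Meis2. The cause of these shifts was not tested. TGACAG was in 4 of 13 MACS2 peaks (30.8%, against 41.9% elsewhere). No alternative brought a sequence test under 0.05, with p from 0.0918 to 1, which with so few OS is no sign of stability. No paired analysis was possible because the deposited lists hold no values per replicate, and for the same reason no replicate could be left out.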
